A study of Homo sapiens with 4 samples.

Results

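The clustered histone genes lie in the HIST1 cluster on chromosome 6, the HIST2 and HIST3 clusters on chromosome 1 and the HIST4 locus on chromosome 12. They were chosen by gene symbol alone, as rows of the deposited count table whose symbol begins with HIST1H, HIST2H, HIST3H or HIST4H and does not end as a pseudogene symbol. That gave 74 genes of 56657 rows: 6 of the linker histone H1 and 17, 22, 14 and 15 of the core histones H2A, H2B, H3 and H4. The reference annotation, GENCODE release 29, types 70 of them as protein coding. It types HIST2H2BA, HIST2H2BB, HIST2H2BD and HIST3H2BA, which have no such ending in their symbol, as pseudogenes. No measured value was used in the choice, yet the set was proposed with results of this comparison known, so the counts given for it are a description and support nothing on their own.

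RNA was sequenced from TE5, an established human esophageal squamous cell carcinoma line, in 4 libraries. The shControl group (n = 2) carried a control short hairpin RNA and is labelled wild type. The shNUP153 group (n = 2) carried hairpin RNA against NUP153, a nucleoporin of the nuclear basket. Hairpins were delivered by lentivirus in both groups, followed by puromycin selection and 7 days of further growth. No label tells whether the replicates of a group are separate infections or cultures; the p-values therefore cover the spread between libraries alone, part of which may be technical. The suffixes g1 and g2 in the shNUP153 descriptions are not explained in the sources, and effects of a hairpin on other transcripts cannot be told apart from those of NUP153 loss. In bulk RNA, fewer cells making a transcript and less of it per cell also cannot be told apart, for instance when the share of cells in S phase differs.

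Core histones H2A, H2B, H3 and H4 form the protein spool of the nucleosome, and H1 binds the DNA between nucleosomes. The genes of these clusters are known for being transcribed mainly in S phase, when new DNA has to be packaged, and for giving intronless messages that end in a stem-loop instead of a poly(A) tail. Some of them can also give messages that run past the stem-loop to a poly(A) site downstream. Libraries made through poly(A) capture see mainly such longer messages; no source used here says whether poly(A) RNA was selected, only that total RNA was the input.

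The stem-loops are shown because they are the element that sets the clustered genes apart from other messages. A stem of 6 bases on each side of a loop of 4 bases was found after the stop codon in the annotated transcripts of 31 of the 74 genes. The reference transcripts of 34 genes end with the stop codon and so hold no such stretch. Sequences are written as DNA, 5′ to 3′, with the stem in capitals and the loop in lower case. Each line names the number of genes and some that carry it.
Stem-loop of 17 genes, among them HIST1H2AC, HIST3H2A, HIST1H2BG and HIST1H3H: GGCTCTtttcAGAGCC
Stem-loop of 5 genes, HIST1H2BC, HIST1H2BD, HIST1H2BF, HIST1H3G and HIST3H3: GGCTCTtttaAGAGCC
Stem-loop of 5 genes, HIST1H4B, HIST1H4E, HIST1H4H, HIST1H4J and HIST4H4: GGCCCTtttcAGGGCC
Stem-loop of 3 genes, HIST1H4I, HIST2H4A and HIST2H4B: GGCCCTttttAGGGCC
Stem-loop of HIST1H3E: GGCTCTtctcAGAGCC
The 8 H4 genes began with the stem GGCCCT and the other 23 genes with the stem GGCTCT, and within either stem the sequences differed in the loop. The transcript model that holds the stem-loop ran past it by 1114 bases in HIST1H2AC, 390 in HIST3H2A, 212 in HIST1H4I, 116 in HIST1H2BC and 39 in HIST1H2BD. HIST1H2BC and HIST1H2BD each have another model with a longer 3′ untranslated region, of 272 and 384 bases.

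Promoters are shown for the gene with the most counts in each class, and for HIST1H2AC, chosen after its values were seen because it shares its upstream stretch with HIST1H2BC on the opposite strand. They run from 250 bases before to 50 after the annotated start and come from RefSeq on GRCh38.p14; the submitters' processing notes name hg19, without saying what it was used for. Capitals mark 3 motifs searched on both strands, so a motif may appear as its reverse complement: TATAAA, the TATA box; CCAAT, the CCAAT box; and ATTTGCAT, the octamer bound by POU factors. Matches of TATAAA on opposite strands may overlap.
HIST1H1C, chr6:26056421-26056720, minus strand: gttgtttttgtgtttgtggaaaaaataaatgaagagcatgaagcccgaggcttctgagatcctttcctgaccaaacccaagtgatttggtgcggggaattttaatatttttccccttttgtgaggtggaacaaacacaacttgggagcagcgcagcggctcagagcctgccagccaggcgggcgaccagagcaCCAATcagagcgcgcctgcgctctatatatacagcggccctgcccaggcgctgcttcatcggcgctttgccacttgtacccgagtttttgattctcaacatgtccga
HIST3H2A, chr1:228457824-228458123, minus strand: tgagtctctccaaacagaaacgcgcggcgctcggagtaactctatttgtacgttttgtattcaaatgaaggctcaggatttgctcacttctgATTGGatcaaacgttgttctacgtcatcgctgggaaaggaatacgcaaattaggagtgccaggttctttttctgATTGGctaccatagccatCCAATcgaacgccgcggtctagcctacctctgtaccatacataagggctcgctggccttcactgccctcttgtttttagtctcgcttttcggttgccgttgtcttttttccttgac
HIST1H2BK, chr6:27146806-27147105, minus strand: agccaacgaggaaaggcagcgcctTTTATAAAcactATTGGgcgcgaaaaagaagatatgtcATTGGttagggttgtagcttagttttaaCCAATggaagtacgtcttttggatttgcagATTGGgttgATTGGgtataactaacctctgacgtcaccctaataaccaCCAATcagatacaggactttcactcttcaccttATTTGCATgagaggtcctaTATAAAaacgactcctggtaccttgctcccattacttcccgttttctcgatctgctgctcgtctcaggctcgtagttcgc
HIST1H3G, chr6:26271364-26271663, minus strand: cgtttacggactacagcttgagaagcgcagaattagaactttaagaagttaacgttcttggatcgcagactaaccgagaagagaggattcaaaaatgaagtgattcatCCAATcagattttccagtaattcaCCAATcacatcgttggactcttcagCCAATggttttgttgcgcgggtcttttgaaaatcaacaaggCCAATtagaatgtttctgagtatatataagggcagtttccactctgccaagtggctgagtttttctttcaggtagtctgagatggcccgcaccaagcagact
HIST1H4I, chr6:27139032-27139331, plus strand: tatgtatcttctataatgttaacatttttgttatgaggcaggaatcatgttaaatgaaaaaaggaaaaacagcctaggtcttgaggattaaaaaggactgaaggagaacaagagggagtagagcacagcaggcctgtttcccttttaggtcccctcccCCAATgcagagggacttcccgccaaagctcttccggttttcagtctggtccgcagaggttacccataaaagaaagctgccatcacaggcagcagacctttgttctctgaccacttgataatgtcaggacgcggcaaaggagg
HIST1H2AC, chr6:26123922-26124221, plus strand: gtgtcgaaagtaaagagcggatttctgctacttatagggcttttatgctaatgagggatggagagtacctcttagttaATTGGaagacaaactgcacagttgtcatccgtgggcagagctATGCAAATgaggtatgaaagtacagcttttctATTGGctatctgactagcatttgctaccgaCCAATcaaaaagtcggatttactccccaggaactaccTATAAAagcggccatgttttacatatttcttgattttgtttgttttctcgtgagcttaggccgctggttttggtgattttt
RefSeq held a promoter for 61 of the 74 genes, in 65 entries. TATAAA was in 66.2% of these entries and in 11.5% of all 35116 promoters in the table. CCAAT was in 84.6% against 34.6%, with matches in every entry of the H1, H2A, H2B and H3 genes and in 23.1% of the H4 entries. The octamer was in 41.5% against 1.77%, in 78.6% of the H2A and 75% of the H2B entries, in 8.33% of the H3 entries and in none of the 6 H1 or 13 H4 entries. The only H3 match is in a HIST1H3D entry whose window is also that of HIST1H2AD, and the other HIST1H3D entry holds none. Windows of several neighbouring H2A and H2B genes overlap on opposite strands, so the same stretch can be counted in both classes. A match is a description of these letters, not of a bound site. The promoter window of HIST1H2BC is chr6:26123877-26124176 on the minus strand, so most of it is that printed for HIST1H2AC, read from the other strand.

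Few of these genes had many reads. Of the 74, 31 passed the filter on low counts and were tested, 43 were not, and 12 were at 0 in all 4 libraries. A count of 0 allows up to 3 counts, or 0.113 to 0.135 CPM (counts scaled to library size, here by the TMM method), and this covers counting error only. Of the genes at 0, HIST1H2AK, HIST1H3D, HIST2H3A and HIST2H3C share 100% of their 31-base stretches with other genes. HIST1H2AD, HIST2H2AA4, HIST2H4B, HIST2H2BB and HIST1H2AM share 87.05% to 98.07%, but HIST1H2AA, HIST1H2BA and HIST1H4L only 0% to 2.84%. How shared reads were counted is not known, so a 0 in the genes that share most need not mean absence. Together, 38 genes held under 20 counts summed over the libraries. The filter asks for about 10 counts in 2 libraries, so a gene can pass it through its higher group alone. The untested genes with 20 counts or more were HIST1H2AJ, HIST1H1E, HIST1H4K, HIST1H1B and HIST1H2BO. HIST1H2AJ had 12, 10, 9 and 9 counts, in the order shControl 1, shControl 2, shNUP153 1 and shNUP153 2. In the same order HIST1H1E, a linker histone, had 6, 10, 6 and 9 counts. HIST1H4K had 6, 3, 14 and 9 counts. The H1 gene HIST1H1B had 5, 7, 4 and 9 counts. HIST1H2BO had 3, 4, 6 and 9 counts. Scaled to library size, HIST1H4K and HIST1H2BO were higher in both shNUP153 libraries than in either shControl library, by a few counts, and HIST1H2AJ, HIST1H1E and HIST1H1B overlapped.

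Genes with a longer annotated 3′ end were more often measured. Of 25 coding genes with an annotated 3′ untranslated region of 200 bases or more, 22 were tested; the other 3, HIST2H3A, HIST2H3C and HIST2H4B, were at 0, and each has a copy with an identical transcript model. Of the 45 with a shorter one or none, 8 were tested and 32 had under 20 counts. Per length, as mean CPM per kilobase of the longest annotated transcript, HIST1H2BK stood at 109, HIST3H2A at 39.5, HIST1H2BD at 26.7, HIST1H1C at 23.1, HIST1H2AC at 10.4 and HIST1H4I at 8.08. These lengths are those of GENCODE on GRCh38 and may not be the ones reads were assigned to, so the order is only approximate. Small RNAs and other RNAs known to lack a poly(A) tail were listed as a sign of how the libraries were made. Of the 19 rows found for that list, 12 were at 0, and RN7SL2, an RNA of the signal recognition particle, held nearly all counts at 184 and 219 CPM in shControl and 141 and 176 in shNUP153.

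**Figure D1:**
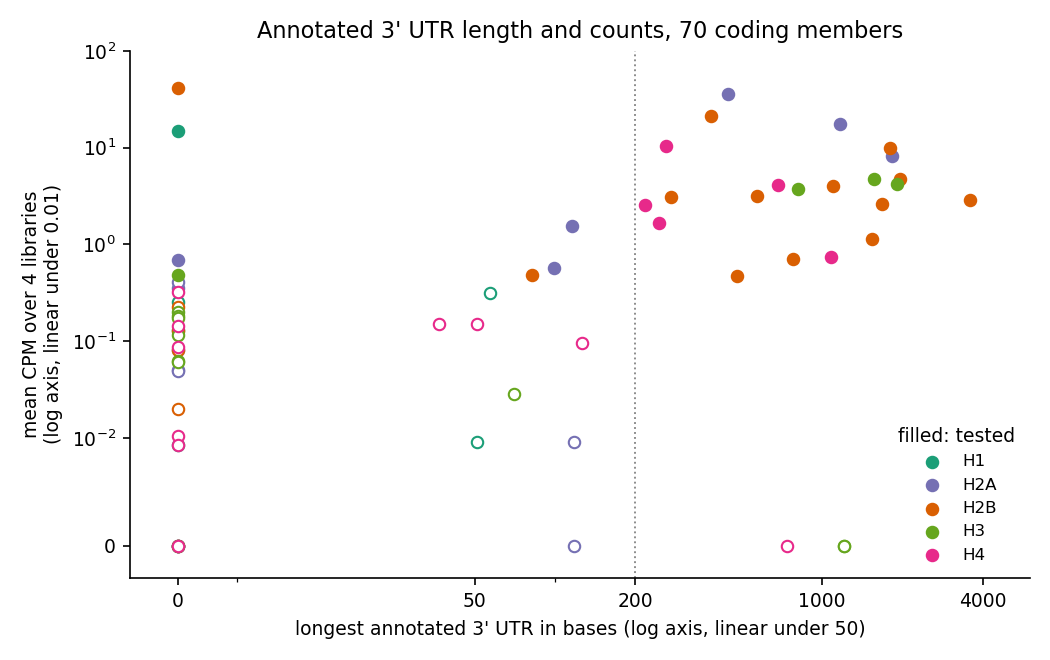
Mean CPM over the 4 libraries (log axis, linear under 0.01) against the longest annotated 3′ untranslated region in bases (log axis, linear under 50) for the 70 coding genes, coloured by class. Filled points were tested: 22 of the 25 genes to the right of the dotted line at 200 bases, and 8 of the 45 to its left.

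Of the 31 tested genes, 11 were higher in shNUP153, 1 was lower and 19 passed in neither direction (edgeR quasi-likelihood test, Benjamini-Hochberg adjusted p under 0.05 over 16817 genes). The background was large: 15.0% of all tested genes were called higher, 17.4% lower and 32.4% in either direction. The log2 fold change (shNUP153 over shControl) was positive in 27 genes and negative in 4, with a median of 0.31 beside 0.01 over all tested genes. Both shNUP153 libraries lay above both shControl libraries in 18 genes, below in 3 and overlapped in 10; over all tested genes 32.2% lay above and 32.2% below. All genes gave 2521 higher and 2927 lower calls, and 3573 and 2114 when scaled by total count alone, a setting that gave 13 higher and 1 lower among the histone genes. Without shNUP153 replicate 1 the calls over all genes were 1312 and 1715, without shNUP153 replicate 2 they were 1428 and 1872, and among the histone genes leaving out any 1 library left 8 or 9 higher calls.

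**Figure D2:**
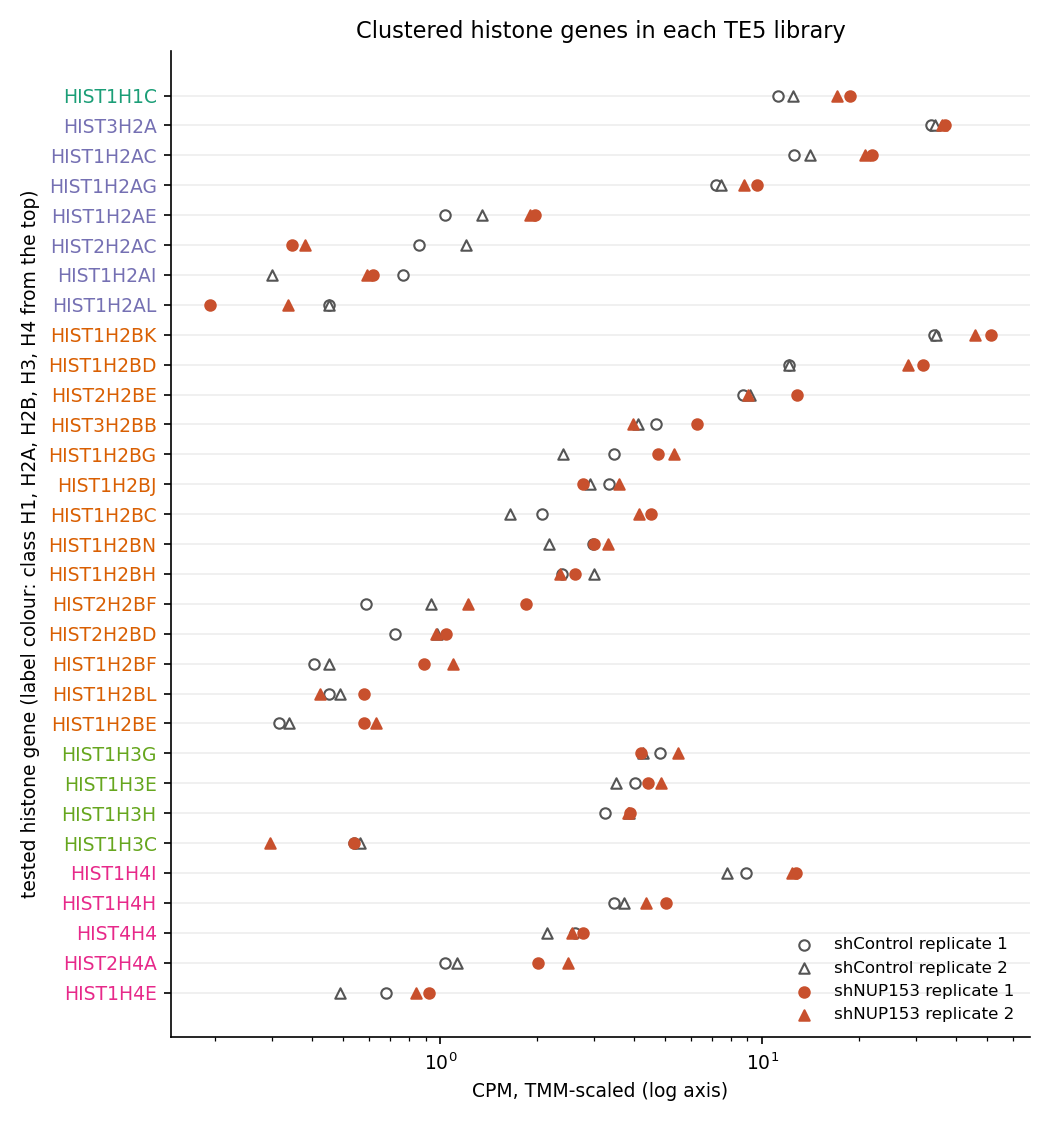
CPM of the 31 tested histone genes in each library (log axis), ordered by class and by mean CPM within it. Open symbols are the shControl and filled symbols the shNUP153 libraries: in HIST1H2BD the open symbols coincide near 12.1 CPM and the filled ones lie at 28.5 and 31.6.

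Libraries held 22606593 to 27396268 counts, so 1 CPM stood for 22.2 to 26.7 counts. NUP153, the targeted gene, measured 149 and 142 CPM in shControl and 67.9 and 81.9 in shNUP153, a 1.94-fold lower level (edgeR adjusted p = 1.05e-14). All 8 listed epithelial markers were detected, with summed levels of 1426 to 1470 CPM in shControl and 1792 to 1799 in shNUP153, although KRT14 was at 0.231 to 0.548. The higher sum came from KRT17, at 745 and 724 CPM in shControl and 1252 and 1238 in shNUP153. EPCAM, KRT5, SOX2 and KRT6A were lower, with log2 fold changes of -1.02, -0.68, -0.34 and -0.23 (edgeR adjusted p = 7.30e-18, 7.40e-07, 0.000130 and 0.0212), while TP63 and DSG3, at -0.08 and -0.09, did not pass (edgeR adjusted p = 0.192 and 0.184). Of 5 fibroblast markers DCN and LUM were at 0 and the sum was 0.496 to 0.60 CPM in shControl and 0.540 to 0.927 in shNUP153. The 4 leukocyte markers summed to 0.586 to 0.863 and 0.308 to 0.801 CPM. The 3 endothelial markers summed to 11.1 to 12.2 CPM in shControl and 24.0 to 25.1 in shNUP153, nearly all from CDH5, while PECAM1 was at 0 to 0.116. Mitochondrially encoded genes took 5.31% and 5.60% of counts in shControl and 5.77% and 6.59% in shNUP153. The part of these shifts in the histone values was not tested.

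Linker histone was represented by a single tested gene. HIST1H1C, which encodes the linker histone H1.2, measured 11.2 and 12.5 CPM in shControl and 18.7 and 17.0 CPM in shNUP153. The groups did not overlap, and the level was 1.51-fold higher (log2 fold change 0.59, SE 0.10, edgeR adjusted p = 2.04e-05). It held 95.4% of the summed CPM of the 6 H1 genes, and its reference transcript, which ends with the stop codon, shares 0.82% of its 31-base words with other genes. Its call was kept in every alternative fit tried.

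H2A genes went in different directions. HIST1H2AC measured 12.5 and 14.1 CPM in shControl and 21.9 and 20.9 in shNUP153, 1.61-fold higher with no overlap (log2 0.68, SE 0.10, edgeR adjusted p = 6.95e-07). HIST1H2AG measured 7.17 and 7.46 CPM against 9.64 and 8.77, 1.26-fold higher (log2 0.33, SE 0.13, edgeR adjusted p = 0.0459). The call for HIST1H2AG is near the threshold: leaving out any of the 4 libraries ended it (edgeR adjusted p = 0.0807 to 0.293), as did DESeq2 (adjusted p = 0.194) and testing with no filter (edgeR adjusted p = 0.0926). It is 1 of 5 H2A genes that encode the same protein. HIST2H2AC was the only member called lower, at 0.856 and 1.2 CPM in shControl and 0.347 and 0.379 in shNUP153, that is 19 and 32 counts against 9 and 9. Since both libraries reached 10 counts only in shControl, it passed the filter on low counts through its higher group alone. It was 2.84-fold lower (log2 fold change -1.51, SE 0.44, edgeR adjusted p = 0.00724), but the call ended without shControl replicate 2, shNUP153 replicate 1 or shNUP153 replicate 2 (edgeR adjusted p = 0.0670, 0.0928 and 0.0627). Of its 31-base words 50.6% occur in other genes, mainly HIST2H2AA3 and HIST2H2AA4, which held 1 and 0 counts over the 4 libraries.

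HIST3H2A, with the most counts of the class, measured 33.6 and 34.5 CPM in shControl and 37.0 and 36.2 in shNUP153. The groups did not overlap, but the difference, 0.11 on the log2 scale (SE 0.07), did not pass the test (edgeR adjusted p = 0.284). HIST1H2AE measured 1.04 and 1.35 against 1.97 and 1.90 CPM, also without overlap, with a log2 fold change of 0.68 that missed the threshold (SE 0.29, edgeR adjusted p = 0.0668, and 0.0403 with total-count scaling). HIST1H2AI measured 0.766 and 0.300 CPM against 0.617 and 0.590, and HIST1H2AL 0.451 and 0.450 against 0.193 and 0.337, with 55 and 35 counts in all. Neither passed (edgeR adjusted p = 0.765 and 0.314), and both encode the protein of HIST1H2AG.

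H2B was the class with the most tested genes, 14 of 22, and with the most higher calls, 6 (15.0% over all tested genes). None was called lower: edgeR gave 0, 0 at an unadjusted p under 0.05, and DESeq2 0, with no adjusted p for 5 of the 14. HIST1H2BD measured 12.1 and 12.2 CPM in shControl and 31.6 and 28.5 in shNUP153, 2.48-fold higher (log2 1.31, SE 0.09, edgeR adjusted p = 9.83e-14), the largest log2 fold change among the tested members. HIST1H2BC, whose start lies next to that of HIST1H2AC on the opposite strand, measured 2.07 and 1.65 CPM against 4.51 and 4.13, 2.34-fold higher (log2 1.23, SE 0.21, edgeR adjusted p = 2.22e-05). HIST1H2BK measured 34.3 and 34.8 CPM against 51.3 and 45.9, 1.41-fold higher (log2 0.49, SE 0.07, edgeR adjusted p = 1.00e-06). These 3 genes showed no overlap between groups and kept their call in every alternative in which they were tested. HIST1H2BK shares 86.3% of its 31-base words with other genes, mainly H2BFS, a near-identical copy that was at 0 counts in all libraries, so its value may hold reads of either.

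The other called H2B genes had fewer counts. HIST1H2BG measured 3.47 and 2.40 CPM against 4.74 and 5.31 (log2 0.79, SE 0.19, edgeR adjusted p = 0.00161), and missed the threshold without shControl replicate 2 at log2 0.53 (edgeR adjusted p = 0.0680). HIST2H2BF measured 0.586 and 0.938 CPM against 1.85 and 1.22 (log2 0.99, SE 0.35, edgeR adjusted p = 0.0286). Its call ended without shControl replicate 1 or shNUP153 replicate 1 (edgeR adjusted p = 0.155 and 0.367), and its exons overlap those of FCGR1A on the opposite strand. HIST1H2BF measured 0.406 and 0.450 CPM against 0.887 and 1.10, from 9 and 12 against 23 and 26 counts (log2 1.19, SE 0.42, edgeR adjusted p = 0.0282). Leaving out any of the 4 libraries ended that call (edgeR adjusted p = 0.0606 to 0.20). In all 3 genes both shNUP153 libraries lay above both shControl libraries.

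The other H2B genes passed in neither direction. HIST2H2BE measured 8.70 and 9.19 CPM in shControl and 12.8 and 9.06 in shNUP153, so that only 1 shNUP153 library stood above both controls (log2 0.30, SE 0.13, edgeR adjusted p = 0.0870). It passed without shNUP153 replicate 2, at log2 0.52 (edgeR adjusted p = 0.0128), as well as with total-count scaling and with only genes of a mean of 5 CPM or more (edgeR adjusted p = 0.0261 and 0.0499). HIST3H2BB had the same shape, at 4.69 and 4.13 CPM against 6.28 and 3.96 (log2 0.23, edgeR adjusted p = 0.373). HIST1H2BE, at 0.316 and 0.338 CPM against 0.578 and 0.632, did not overlap but had only 46 counts in all (log2 0.87, SE 0.50, edgeR adjusted p = 0.185). HIST1H2BN measured 2.98 and 2.18 CPM against 3.01 and 3.33 (log2 0.31, edgeR adjusted p = 0.296), and its exons overlap those of HIST1H2AL and HIST1H2AK. The remaining 4, HIST1H2BJ, HIST1H2BH, HIST1H2BL and the pseudogene HIST2H2BD, overlapped between groups, with log2 fold changes of 0.02, -0.12, 0.09 and 0.23 and edgeR adjusted p of 0.951, 0.727, 0.910 and 0.679.

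No H3 gene passed the test: of 4 tested, edgeR called 0, 0 had an unadjusted p under 0.05, and DESeq2 called 0 of the 3 to which it gave an adjusted p. HIST1H3G measured 4.82 and 4.28 CPM in shControl and 4.20 and 5.48 in shNUP153 (log2 0.09, SE 0.18, edgeR adjusted p = 0.745). HIST1H3E measured 4.01 and 3.53 CPM against 4.43 and 4.85, without overlap (log2 0.30, SE 0.18, edgeR adjusted p = 0.203). HIST1H3H measured 3.25 and 3.86 CPM against 3.89 and 3.84 (log2 0.11, SE 0.19, edgeR adjusted p = 0.694). HIST1H3C measured 0.541 and 0.563 CPM against 0.540 and 0.295, from 48 counts in all (log2 -0.39, SE 0.49, edgeR adjusted p = 0.595). All 4 belong to the 10 HIST1 genes that encode an identical H3 protein. Whether the H3 genes differed from the H2B genes in their response was not tested.

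H4 genes had positive log2 fold changes in all 5 tested cases, of which 2 passed (15.0% of all tested genes were called higher). HIST1H4I measured 8.93 and 7.80 CPM in shControl and 12.7 and 12.3 in shNUP153, 1.51-fold higher (log2 0.59, SE 0.12, edgeR adjusted p = 0.000153). HIST2H4A measured 1.04 and 1.13 CPM against 2.0 and 2.49, 2.06-fold higher (log2 1.04, SE 0.28, edgeR adjusted p = 0.00421), and missed the threshold without shNUP153 replicate 2 (edgeR adjusted p = 0.0859). It has an identical transcript model in common with HIST2H4B, at 0 counts, so its reads may come from either copy. HIST2H4A exons also overlap those of HIST2H3C on the opposite strand. HIST2H4A shares 145 31-base words with HIST2H3C and 145 with HIST2H3A, both at 0 counts. The strand setting is not known, so reads of these H3 genes may be among its counts. HIST1H4H measured 3.47 and 3.71 CPM against 5.01 and 4.34, and HIST1H4E 0.676 and 0.488 against 0.925 and 0.843; neither overlapped and neither passed (log2 0.38 and 0.62, edgeR adjusted p = 0.106 and 0.265). HIST4H4 measured 2.61 and 2.14 CPM against 2.78 and 2.57 and overlapped (log2 0.18, edgeR adjusted p = 0.593).

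**Figure D3:**
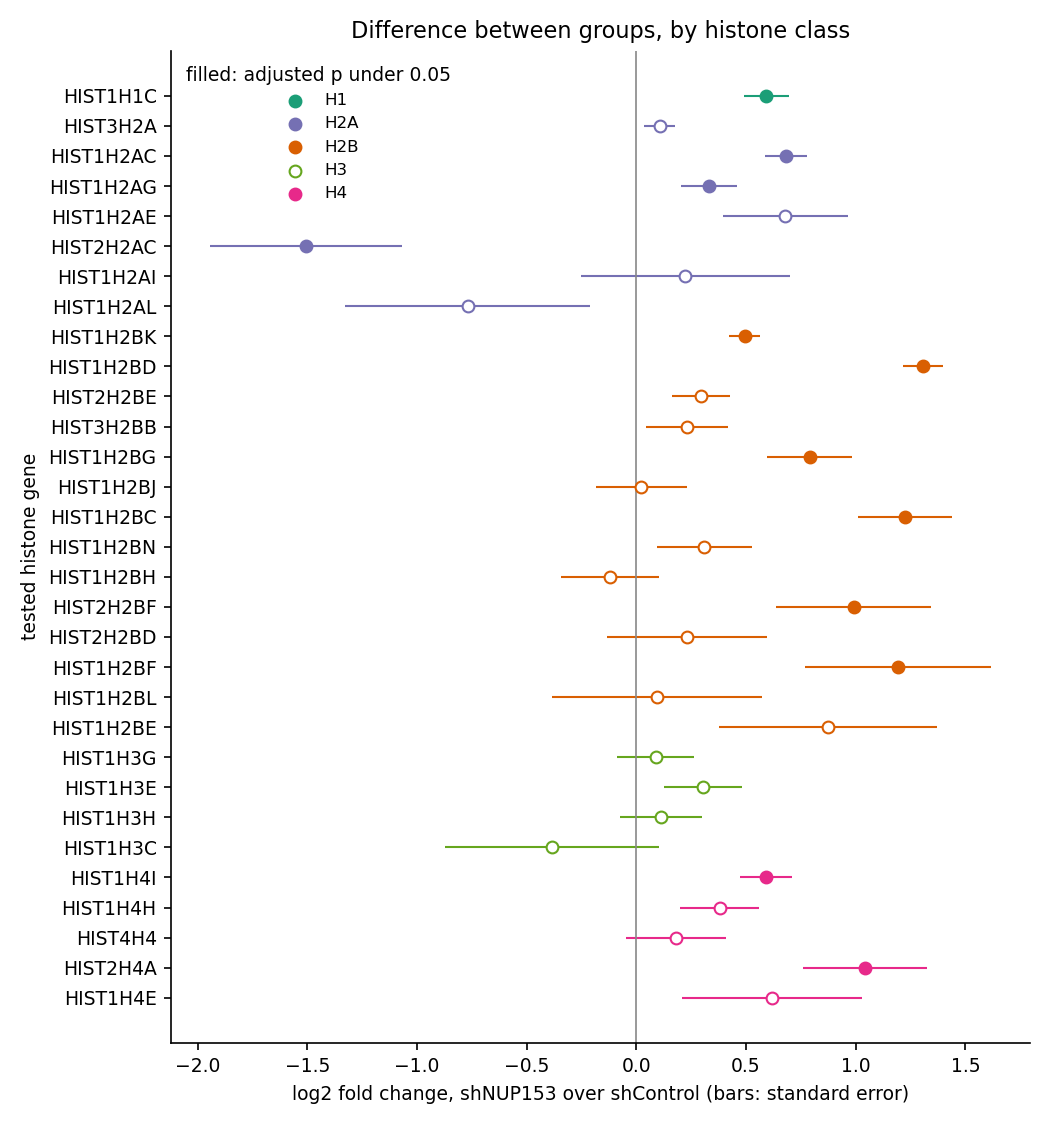
Log2 fold change (shNUP153 over shControl) with its standard error for the 31 tested genes, in the order of the plot of levels. Filled points passed the test, 11 to the right of 0 and HIST2H2AC at -1.51 to its left; the 4 H3 genes are all open.

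Summed over a class, reads that counting could have moved between near-identical genes of that class no longer change the value. This does not cover reads moved between classes, as between HIST2H4A and HIST2H3C. Nor does it cover reads that counting may have dropped because they match several genes. HIST2H3A and HIST2H3C, with identical transcript models, were both at 0, so the sums may leave out such genes. The 74 genes summed to 177 and 179 CPM in shControl and 255 and 237 in shNUP153, a ratio of group means of 1.38. H1 genes summed to 11.8 and 13.3 CPM against 19.2 and 18.0, a ratio of 1.48. H2A genes summed to 57.0 and 59.9 against 72.3 and 69.8, a ratio of 1.22, with 54.6% of it from HIST3H2A. H2B genes summed to 77.1 and 75.9 CPM against 125 and 111, a ratio of 1.54, with 42.7% of it from HIST1H2BK. H3 genes summed to 13.5 and 13.4 CPM against 13.9 and 14.9, a ratio of 1.07. H4 genes summed to 17.7 and 16.2 CPM against 24.4 and 23.6, a ratio of 1.42. The shNUP153 libraries thus lay above the shControl libraries in every class, by the least in H3, and 6 genes (HIST1H2BK, HIST3H2A, HIST1H2BD, HIST1H2AC, HIST1H1C and HIST1H4I) held 66.4% of the summed CPM. These sums were not tested.

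**Figure D4:**
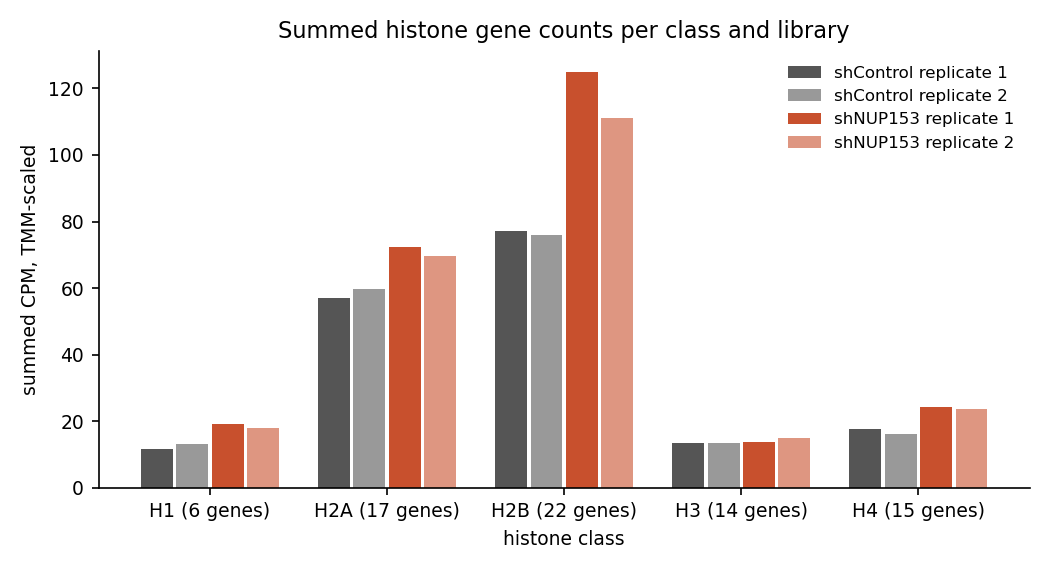
Summed CPM of each histone class in each library, with bars starting at 0. The H2B bars stand at 77.1 and 75.9 CPM in shControl and 125 and 111 in shNUP153, while the 4 bars of H3 lie between 13.4 and 14.9.

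Genes that encode an identical protein were also summed before the fit, which gave 19 tested rows, of which 7 were higher and 1 lower by the same edgeR test. The 14 genes of 1 H4 protein gave 17.7 and 16.2 CPM in shControl and 24.4 and 23.6 in shNUP153 (log2 0.51, SE 0.09, edgeR adjusted p = 2.87e-05). The 10 genes of 1 H3 protein gave 13.1 and 13.2 CPM against 13.7 and 14.7 (log2 0.11, SE 0.10, edgeR adjusted p = 0.473). HIST1H2BC, HIST1H2BE, HIST1H2BF, HIST1H2BG and HIST1H2BI, which share 1 H2B protein, gave 6.49 and 4.88 CPM against 10.8 and 11.3 (log2 0.97, SE 0.14, edgeR adjusted p = 7.22e-07). HIST1H2AG, HIST1H2AI, HIST1H2AK, HIST1H2AL and HIST1H2AM, which share 1 H2A protein, gave 8.38 and 8.21 CPM against 10.4 and 9.69 and missed the threshold (log2 0.28, SE 0.12, edgeR adjusted p = 0.0772). The drop from 11 to 7 higher calls comes with fewer rows, since HIST1H2BC, HIST1H2BF and HIST1H2BG became 1 row and HIST1H4I and HIST2H4A another, and with the loss of the HIST1H2AG call.

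Position within the HIST1 cluster was described after the values were seen, and no test was made of it. The widest space between neighbouring HIST1 members, 848 kilobases, leaves 34 of them before it and 21 after it. Before it, 14 genes were tested and 6 were higher (15.0% over all tested genes), with log2 fold changes of -0.39 to 1.31 and a median of 0.65. After it, 9 genes were tested and 3 were higher, with log2 fold changes of -0.77 to 0.59 and a median of 0.22. Those 3, HIST1H2AG, HIST1H4I and HIST1H2BK, lie before the next widest space, of 660 kilobases. The tested genes past that space, HIST1H2BL, HIST1H2AI, HIST1H3H, HIST1H2BN and HIST1H2AL, passed in neither direction. From HIST1H1C to HIST1H2AE, all 9 tested genes had log2 fold changes of 0.59 or more, H1, H2A, H2B and H4 genes among them. The run is unbroken among tested genes only. Within it lie the untested HIST1H4C, HIST1H1T, HIST1H1E, HIST1H4D, HIST1H3D and HIST1H2AD, which all overlapped between groups, the last 2 at 0. HIST1H1E measured 0.270 and 0.375 CPM in shControl and 0.231 and 0.379 in shNUP153. Of the 9 tested genes, HIST1H2BE, HIST1H4E and HIST1H2AE did not pass the test. HIST1H2BE reached about 10 counts only in shNUP153, where both libraries held 15 against 7 and 9 in the controls. The tested genes on either side of the run, HIST1H3C before it and HIST1H3E after it, stood at -0.39 and 0.30.

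**Figure D5:**
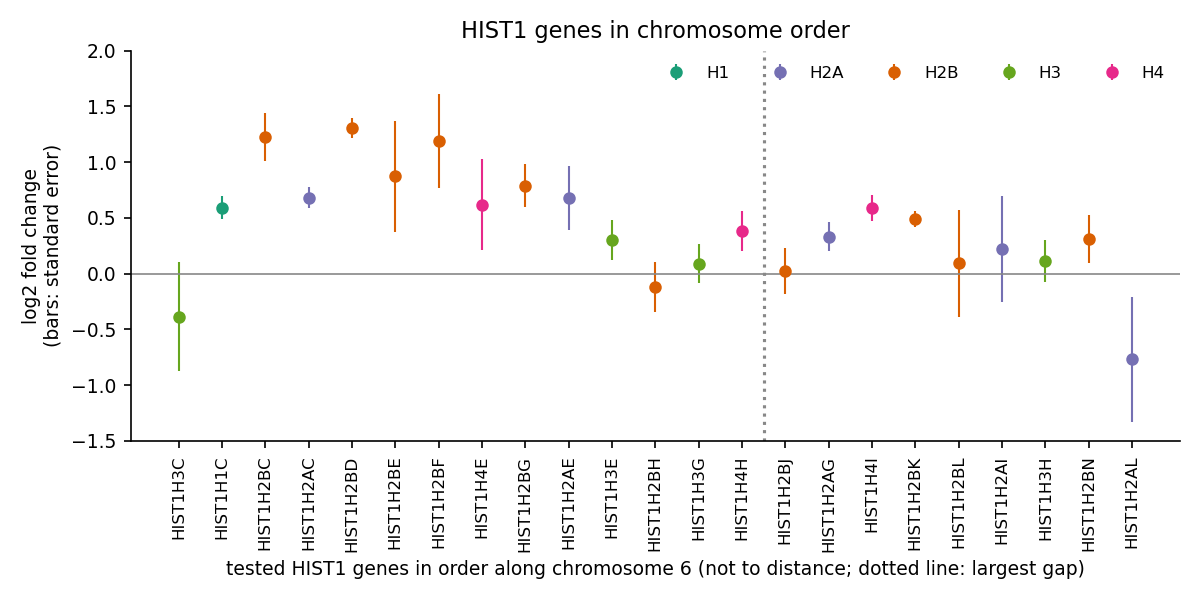
Log2 fold change with its standard error for the 23 tested HIST1 genes, in their order along chromosome 6 and not to distance, coloured by class. The 9 tested genes from HIST1H1C to HIST1H2AE lie between 0.59 and 1.31, and the dotted line marks the widest space between neighbouring members.

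Genes that act on histone messages and proteins were read from the same fit, by lists chosen with earlier results of these data known. The 3′ ends of histone messages are cut by the U7 particle together with the stem-loop binding protein SLBP, and NPAT switches the genes on at the histone locus. Of 34 tested genes for transcription and 3′ processing, 2 were higher and 13 lower (15.0% and 17.4% over all tested genes). Their median log2 fold change was -0.09. The split of 2 and 13 moved to 5 higher and 5 lower with total-count scaling. It was 0 higher and 6 lower both with DESeq2 and without shNUP153 replicate 1, and 1 higher and 7 lower without shNUP153 replicate 2. Testing only genes with a mean of 5 CPM or more gave 5 higher. SLBP measured 136 and 141 CPM in shControl and 113 and 117 in shNUP153 (log2 -0.27, SE 0.05, edgeR adjusted p = 8.63e-05). NPAT measured 26.0 and 27.8 CPM against 19.2 and 21.4 (log2 -0.41, SE 0.09, edgeR adjusted p = 0.000312). Both were lower without overlap between groups.

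Among the U7-specific proteins, ZNF473 was higher and the others did not pass. ZNF473 measured 13.3 and 12.3 CPM against 18.0 and 14.4 (log2 0.35, SE 0.11, edgeR adjusted p = 0.0125), a call that ended with DESeq2 (adjusted p = 0.0870) and without shControl replicate 2 or shNUP153 replicate 1 (edgeR adjusted p = 0.0590 and 0.414). LSM11 measured 18.6 and 16.1 CPM against 14.8 and 14.4 (log2 -0.24, edgeR adjusted p = 0.0618), and passed without shControl replicate 2 (log2 -0.34, edgeR adjusted p = 0.0151). LSM10 measured 20.4 in both shControl libraries and 21.7 and 19.2 CPM in shNUP153 (log2 0.01, edgeR adjusted p = 0.966). CASP8AP2, a protein of the histone locus known as FLASH, measured 47.0 and 40.7 CPM against 41.4 and 40.9 (log2 -0.09, edgeR adjusted p = 0.390), and passed without shControl replicate 2 (log2 -0.19, edgeR adjusted p = 0.0435). The cap-binding protein NCBP1 fell by 0.33 (SE 0.05) on the log2 scale, the splicing and export factor SRSF3 by 0.27 (SE 0.04) and the cleavage factor CPSF2 by 0.26 (SE 0.05), with edgeR adjusted p of 5.54e-06, 8.20e-06 and 8.15e-05.

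For decay and translation of histone messages, 3 of 25 tested genes were higher and 5 lower, with a median of -0.06, shares near the 15.0% and 17.4% of all tested genes. The exonuclease XRN1 measured 83.8 and 76.2 CPM in shControl and 59.3 and 55.3 in shNUP153 (log2 -0.48, SE 0.06, edgeR adjusted p = 1.24e-07). XRN2, the nuclear exonuclease, and LSM2, of the ring that binds 3′ ends, had log2 fold changes of -0.27 and -0.35, and the decapping enzyme DCP2 of 0.48, all past the same edgeR test. Without shNUP153 replicate 2 the counts were 1 higher and 3 lower, and the higher calls were also 1 without shNUP153 replicate 1 and with DESeq2.

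Genes for histone chaperones, import and deposition were lower in 14 of 25 tested cases and higher in 2. Over all tested genes 17.4% were lower and 15.0% higher. The median of the list was -0.23. MCM2, a subunit of the replicative helicase that also binds H3 and H4, measured 464 and 501 CPM in shControl and 320 in both shNUP153 libraries (log2 -0.59, SE 0.05, edgeR adjusted p = 1.06e-12). NASP, an H3 and H4 chaperone, fell by 0.47 on the log2 scale, ASF1B, which hands new histones to assembly factors, by 0.48, and SUPT16H, of the FACT complex, by 0.39, with edgeR adjusted p of 1.62e-09, 3.51e-09 and 1.41e-08. The 2 higher calls became 0 without shControl replicate 2 or shNUP153 replicate 2, 1 without shNUP153 replicate 1, with DESeq2 and with no filter on low counts, and 4 with total-count scaling.

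S phase genes and factors of histone promoters were lower in 16 of 26 tested cases (17.4% over all tested genes). Their median was -0.27. edgeR called 0 higher, 0 had an unadjusted p under 0.05 in that direction and DESeq2 called 0, while total-count scaling gave 3 and testing only genes with a mean of 5 CPM or more gave 1. RRM2, which makes DNA precursors, measured 239 and 247 CPM in shControl and 120 and 129 in shNUP153 (log2 -0.96, SE 0.05, edgeR adjusted p = 2.72e-17). The replication genes CDC6, MCM7 and PCNA fell by 0.70, 0.63 and 0.55 on the log2 scale, with edgeR adjusted p of 1.54e-14, 5.20e-14 and 1.86e-11. These markers of S phase were thus lower in the libraries in which 11 clustered histone genes were higher, and the part of the share of cells in S phase was not tested.

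Histone genes outside the clusters, most of which are known for polyadenylated messages, were lower in 7 of 13 tested cases and higher in 1. Their median was -0.15, and over all tested genes 17.4% were lower and 15.0% higher. H2AFX, the H2A variant phosphorylated at DNA breaks, measured 259 and 270 CPM in shControl and 188 and 194 in shNUP153 (log2 -0.47, SE 0.05, edgeR adjusted p = 6.47e-10). The linker histone genes H1F0 and H1FX fell by 0.39 and 0.34 on the log2 scale (edgeR adjusted p = 5.28e-08 and 8.42e-06). H2AFJ measured 187 and 205 CPM against 239 and 224 (log2 0.24, SE 0.05, edgeR adjusted p = 0.000336) and was the 1 higher gene, a call that ended without shNUP153 replicate 1 (edgeR adjusted p = 0.0688). Without that library the lower calls were 3.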

How the data were processed

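The deposited table gives whole-number counts per gene for 4 libraries; the authors' file carries FPKM in its name, yet its columns sum to different totals, so its values were used as raw counts. Per the submitters' processing notes, kallisto, DESeq2, Bowtie2, deepTools and the build hg19 were used, with no role or version given. For the counter, the annotation and the strand setting the sources used here give nothing. Genes were kept by filterByExpr (minimum count 10, minimum total 15), leaving 16817. Groups were compared with the quasi-likelihood test of edgeR 4.0.16 in R 4.3.3, two-sided, TMM-scaled, group as the only term, threshold 0.05. The procedure was tested on simulated data: at a 1.5-fold change it called 74.5% of genes, at 1.2-fold 26.5%, and it called 8 of 16314 unchanged genes. The simulation gave genes of like level the same spread and changed few genes, picked at random from all tested genes. These rates therefore need not hold for the histone genes, many of which had few counts. Alternatives were other scalings, DESeq2 1.42.0, 2 other filters, a replicate block, leaving out each library, leaving out pseudogenes and summing genes with identical proteins. Replicates differed by more than sampling noise (chi-square per gene 3.57 and 3.09, where sampling alone gives about 1). Every tested member was named, untested ones from 20 counts, and of each other list the 4 genes with the smallest p and SLBP, NPAT, CASP8AP2, LSM10, LSM11 and ZNF473. The members and lists were chosen with earlier results of these data known. Transcripts, 3′ ends and shared 31-base words come from GENCODE release 29.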

Additional observations from a re-analysis of the deposited data

How the results depend on the processing

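Of 11 higher calls among the histone genes, 11 were kept with median-ratio size factors, total-count scaling (which added HIST2H2BE and HIST1H2AE) and a replicate block, 10 with no filter on low counts and 8 with DESeq2, which gave 10 of the 31 genes no adjusted p. A mean of 5 CPM or more left 8 tested genes, 7 of them higher with a median log2 fold change of 0.57, and 0 lower. Summing identical proteins gave 7 higher. Leaving out 1 library gave 8 to 9 higher, 0 to 1 lower and a median of 0.27 to 0.48. The lower call, HIST2H2AC, had no adjusted p in DESeq2, which therefore gave 0. Over all genes, higher calls were 1312 to 2423 and lower calls 1715 to 2851 when 1 library was left out, and DESeq2 gave 1442 higher.

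HIST1H1C, HIST1H2AC, HIST1H2BC, HIST1H2BD, HIST1H2BK and HIST1H4I kept direction and call in every alternative in which they were tested. No called member changed sign. Signs turned, without a call, in 8 genes when 1 library was left out, over which the log2 fold change ran from -0.17 to 0.20 for HIST1H2BJ, -0.16 to 0.29 for HIST1H2BL, -0.34 to 1.00 for HIST1H2AI, -0.15 to 0.52 for HIST3H2BB, -0.11 to 0.27 for HIST1H3G, -0.27 to 0.062 for HIST1H2BH, -0.19 to 0.018 for CASP8AP2 and -0.088 to 0.092 for LSM10. LSM10 also turned with no filter on low counts (-0.0038). Except where the text shows fewer rows or libraries, the cause was not tested.

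Replicate numbers are shared by the groups. Over the tested genes, the deviations of same-numbered libraries from their group means had a correlation of -0.00365. With 2 libraries per group, this value cannot tell whether same-numbered libraries shared a culture or batch. The replicate block gave 11 higher and 1 lower. Depth limits most members: 38 of 74 had under 20 counts and none of these was tested. A lone library left in a group is assumed to vary like the other group.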
